A study of Mus musculus with 6 samples.

Results

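Immunoglobulin genes were compared between 3 Gli1 WT and 3 Gli1 KO liver tumours of the mouse. The members were selected on their names and summed raw counts: they were the rows of the deposited table named for a heavy (Ighv), kappa (Igkv) or lambda (Iglv) variable segment, or for one of 12 constant genes, whose raw counts summed to at least 10 over the 6 libraries. This rule used abundance over all libraries and did not use the difference between genotypes. It kept 168 of 292 immunoglobulin rows, in a table of 43346 genes. The members were 8 of 8 heavy chain constant genes, the light chain constant genes Igkc and Iglc2, 77 of 174 Ighv segments, 78 of 105 Igkv segments and all 3 Iglv segments. Iglc1 and Iglc3 matched no row. At the edge of the rule, Ighv5-15, Ighv1-14, Ighv1-63 and Ighv1-75 lay inside with a summed count of 10, and Ighv5-12 and Ighv1-21 lay outside with 9.

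All 6 tumours were induced by DEN (diethylnitrosamine, a liver carcinogen) in mice that overexpressed the heparan sulfate sulfatase SULF2, which the labels call Sulf2-TTR. The groups therefore differed by label in Gli1 alone, a transcription factor of the Hedgehog pathway, and both carried the carcinogen and the SULF2 overexpression. The labels give no age and no account of how Gli1 was knocked out. They also leave unsaid whether any tumours shared an animal, so the p-values here reflect the spread between these samples, which may be technical. Gli1 itself had few reads: raw counts were 10, 20 and 7 for the WT libraries in replicate order, against 4, 3 and 3 for the KO libraries, so every KO library lay below every WT library. Total gene counts ranged from 75205624 to 132979502 per library, and the hepatocyte marker list summed to between 170337 and 227809 normalized CPM (counts scaled per TMM-adjusted library size) in each library.

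An antibody is made of heavy and light chains, each with a variable region that binds antigen and a constant region, which in the heavy chain sets the class. Each B cell joins 1 variable segment to shorter segments and to a constant gene, first Ighm and Ighd, and may later switch the heavy chain to an IgG, IgE or IgA gene. Plasma cells, the secreting descendants of B cells, fill much of their messenger RNA with immunoglobulin, so a modest number of them can dominate these counts in a tissue. The liver receives B cells and plasma cells by its blood supply, and hepatocytes in the mouse carry the polymeric immunoglobulin receptor that moves IgA into bile.

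Near-identical copies limit what a count of 1 member means, and the 2 pairs printed here show how close the copies are. Igkv1-117 and Igkv1-110 are the kappa segments with the most reads, and the printed stretches end where the annotated segments end. They lie on the plus strand of GRCm38 at chr6:68121528-68121827 and chr6:68270968-68271267 (GENCODE M21 transcripts). Capitals mark the 10 of 300 bases that differ.
Igkv1-117: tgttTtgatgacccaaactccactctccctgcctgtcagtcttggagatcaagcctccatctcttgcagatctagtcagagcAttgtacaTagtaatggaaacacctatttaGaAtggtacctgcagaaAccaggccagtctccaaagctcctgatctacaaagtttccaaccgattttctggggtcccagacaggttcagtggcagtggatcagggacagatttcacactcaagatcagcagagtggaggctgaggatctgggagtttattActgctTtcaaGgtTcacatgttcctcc
Igkv1-110: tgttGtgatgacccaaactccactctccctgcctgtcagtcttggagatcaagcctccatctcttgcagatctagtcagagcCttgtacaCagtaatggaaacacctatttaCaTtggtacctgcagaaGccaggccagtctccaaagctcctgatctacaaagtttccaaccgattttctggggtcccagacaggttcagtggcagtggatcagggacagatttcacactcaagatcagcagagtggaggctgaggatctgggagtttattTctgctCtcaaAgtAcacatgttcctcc
Over 359 coding bases these segments were 97.2% identical, and the longest exact run either shared with another immunoglobulin gene was 140 bases, counted in steps of 5. Ighg2b and Ighg2c, which encode the constant regions of IgG subclasses, are printed for their first constant exon, on the minus strand at chr12:113307643-113307933 and chr12:113288642-113288932. Capitals mark the 36 of 291 bases that differ.
Ighg2b: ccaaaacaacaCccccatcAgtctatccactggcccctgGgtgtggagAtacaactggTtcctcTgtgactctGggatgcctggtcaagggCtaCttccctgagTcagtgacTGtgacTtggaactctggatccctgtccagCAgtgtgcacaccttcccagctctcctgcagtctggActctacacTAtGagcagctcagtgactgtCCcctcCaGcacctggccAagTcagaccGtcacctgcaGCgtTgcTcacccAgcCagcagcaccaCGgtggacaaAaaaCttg
Ighg2c: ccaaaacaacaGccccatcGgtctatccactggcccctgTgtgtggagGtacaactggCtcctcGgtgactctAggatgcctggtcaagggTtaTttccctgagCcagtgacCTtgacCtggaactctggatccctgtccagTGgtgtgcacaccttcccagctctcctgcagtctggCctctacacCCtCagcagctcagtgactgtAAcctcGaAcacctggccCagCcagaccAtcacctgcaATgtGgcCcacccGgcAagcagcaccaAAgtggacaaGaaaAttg
These exons were 87.6% identical, and the longest shared run of the 4 IgG genes ranged from 55 to 85 bases. Among the 77 Ighv segments the median longest shared run was 85 bases, and 23 had a run of at least 100. Among 76 Igkv segments with a transcript the median was 90 bases and 35 had a run of at least 100, and those 35 carried 54.8% of Igkv reads. The labels do not state how reads that fit several places were counted, so values of single segments and of single IgG genes are uncertain. Igha, Ighm, Ighd and Igkc shared no run of 20 bases.

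One library stood apart before any comparison. Immunoglobulin RNA summed over the members reached 43.5, 40.9 and 415 normalized CPM in WT replicates 1, 2 and 3, and 108, 61.3 and 32.0 in KO replicates 1, 2 and 3. WT replicate 3 was thus 9.53 times the median of the other 5 libraries and 3.84 times the next highest, KO replicate 1, while the other 2 WT libraries lay within the KO range. The excess was present in each class of member, from 3.15 times the next highest library for light constant genes to 6.23 times for Ighv. WT replicate 3 was the highest library for 131 of 168 members, KO replicate 1 for 19 and KO replicate 2 for 12. In raw reads WT replicate 3 exceeded the other 5 libraries summed in 47 of 77 Ighv and 39 of 78 Igkv segments. Its reads helped low-count segments to reach the minimum summed count, so these counts of members are not independent of its high level. The main results that rest on WT replicate 3 are given with and without it.

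The summed immunoglobulin level did not separate the genotypes. On the log2 scale it averaged 6.498 ± 1.90 (SD, n = 3) in WT and 5.90 ± 0.88 (SD, n = 3) in KO tumours, a difference of -0.60 (exact two-sided permutation test, p = 0.8). Without WT replicate 3 the difference was 0.50, with KO the higher. With 3 libraries against 3 this test cannot give a p below 0.1. It was 1 of 13 single-value comparisons, and after Benjamini-Hochberg adjustment all 13 exact p-values were 1. In bulk tumour RNA, fewer B lineage cells and less immunoglobulin RNA per cell cannot be told apart.

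Among the constant genes, those of secreted class-switched antibody and of the kappa chain carried the high library, while Ighm and Ighd varied much less. Igha, which encodes the IgA heavy chain of mucosal antibody, held 9.68, 8.51 and 158 normalized CPM in WT replicates 1 to 3 and 35.2, 21.3 and 8.53 in KO replicates 1 to 3. Igkc, the constant gene shared by all kappa chains, held 12.4, 9.79 and 105 normalized CPM in WT and 33.3, 13.5 and 8.53 in KO replicates. For both genes WT replicate 3 was highest, KO replicate 1 was next, and the other libraries of the genotypes overlapped. The fitted KO to WT log2 fold change was -1.44 ± 1.19 (SE) for Igha and -1.204 ± 0.997 (SE) for Igkc, and without WT replicate 3 it was 1.25 for Igha and 0.73 for Igkc. Per length, on the authors' deposited RPKM scale, Igkc was the most abundant constant gene in every library, from 25.2 in KO replicate 3 to 267 in WT replicate 3, and Igha ranged from 2.70 to 48.5.

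Ighm, the gene of the first class a B cell makes, was the only constant gene lower in every KO than in every WT library. It held 6.40, 6.95 and 12.1 normalized CPM in WT replicates 1 to 3 and 5.04, 3.36 and 5.54 in KO replicates 1 to 3. The log2 fold change was -0.87 ± 0.33 (SE), with an unadjusted p of 0.036 and an adjusted p of 1.00 over 18359 genes in edgeR's quasi-likelihood test. Leaving out 1 library at a time gave -1.03 to -0.52. With every KO library below every WT library the sign could not turn, so only the size is informative. Of the 168 members 5 had every KO library below every WT library and 0 the reverse, but the other 4 (Ighv1-5, Igkv3-4, Ighv1-9 and Ighv10-1, named because they met this condition) fell under the low-count filter, with at most 4 reads in any KO library. Over all genes tested, 3.96% had every KO library below every WT library. Ighd, spliced from the same primary transcript as Ighm and kept mainly by naive B cells, followed a different order. It held 2.09, 2.29 and 0.61 normalized CPM in WT and 0.91, 0.41 and 1.195 in KO replicates. The lowest WT value for Ighd was thus that of WT replicate 3, the library with the most Ighm, and the genotypes overlapped (log2 fold change -0.99 ± 0.62, SE). Without WT replicate 3 the Ighd log2 fold change was -1.38 ± 0.49 (SE), and the remaining WT values lay above every KO value.

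The IgG genes overlapped between genotypes one by one. Ighg2c held 1.15, 2.11 and 16.5 normalized CPM in WT and 2.59, 3.21 and 0.65 in KO replicates, a log2 fold change of -1.61 ± 1.08 (SE). Ighg2b held 0.94, 1.84 and 10.3 in WT and 3.83, 3.81 and 0.75 in KO replicates, a log2 fold change of -0.63 ± 0.99 (SE). Both were highest in WT replicate 3 and lowest in KO replicate 3, and without WT replicate 3 both log2 fold changes turned positive, 0.40 for Ighg2c and 1.014 for Ighg2b. Ighg1 was the most uneven constant gene, with 18, 50 and 1146 reads in WT against 372, 10 and 20 in KO replicates. KO replicate 2 had only 10 Ighg1 reads although its Ighg2b count was 507, and the log2 fold change of Ighg1 was -1.84 ± 1.80 (SE) with all libraries and 1.53 without WT replicate 3. Ighg3 was scarce, between 0.09 and 0.75 normalized CPM, and Ighe, the IgE gene, had 0, 0 and 2 reads in WT against 7, 2 and 0 in KO replicates. Iglc2, a lambda constant gene, lay between 0.15 and 0.98 normalized CPM with overlapping genotypes.

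**Figure D1:**
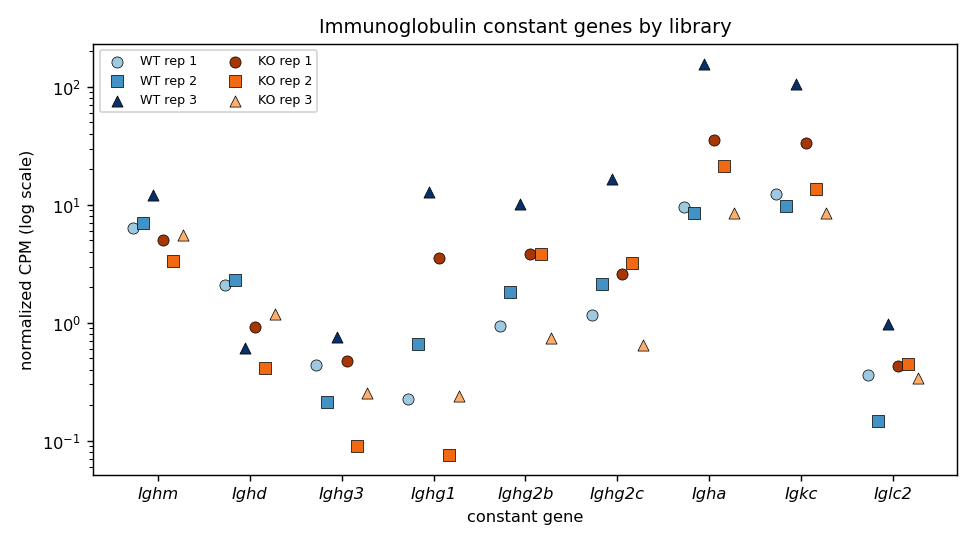
Normalized CPM on a log axis for 9 constant genes on the horizontal axis, with 1 point per library. WT replicate 3 (dark blue triangle) is highest for every gene shown but Ighd, and Ighm is the gene whose 3 KO points all lie below its 3 WT points.

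Across the whole table, edgeR's quasi-likelihood test called 0 genes at an adjusted p under 0.05, a percent called of 0, and 3.62% of the 18359 genes tested had an unadjusted p under 0.05. Of the 168 members, 41 passed the filter on low counts, namely 7 heavy and 2 light constant genes, 5 Ighv, 25 Igkv and 2 Iglv segments. None of the 41 passed an adjusted p of 0.05, and 1, Ighm, had an unadjusted p under 0.05. DESeq2 called 0 members at an adjusted p under 0.05, against 0.317% of 19548 genes, and gave 20 of 157 members an unadjusted p under 0.05, against 3.88% of 28057 genes, with all 20 lower in KO. Of these 20, 9 were Ighv and 10 Igkv segments. DESeq2 was not repeated without WT replicate 3, the highest library for most members, so this count may rest on that library. After Ighm, the members of smallest p were Igkv9-120 (log2 fold change -1.95 ± 0.89, SE), Igkv5-48 (-2.31 ± 1.10, SE) and Ighv3-6 (-2.16 ± 1.05, SE). In edgeR their unadjusted p-values were 0.068, 0.075 and 0.081. Without WT replicate 3 the log2 fold changes were -0.42 ± 0.59 (SE) for Igkv9-120, -0.60 ± 0.86 (SE) for Igkv5-48 and -0.81 ± 0.97 (SE) for Ighv3-6. The reads of Igkv9-120 were 15, 18 and 126 in WT and 16, 31 and 7 in KO replicates, so its genotypes overlapped, and WT replicate 3 set its high end.

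The common downward direction depended on 1 library. With all 6 libraries, 38 of the 41 tested members had a negative log2 fold change and their median was -1.06, against 51.8% of all genes tested negative and a median of -0.01. Without WT replicate 3, of 41 members tested in both fits 14 were negative in both, 24 turned from negative to positive and 3 were positive in both. The median without that library was 0.48, and 1 member had an unadjusted p under 0.05 in the lower and 2 in the higher direction in edgeR, against 9.47% of all genes tested in either direction. With WT replicate 3 and KO replicate 1 both left out, a choice made after seeing the data, 25 members were tested and the median was -0.01. These counts describe members that passed the filter, which the high library helped several of them to pass.

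**Figure D2:**
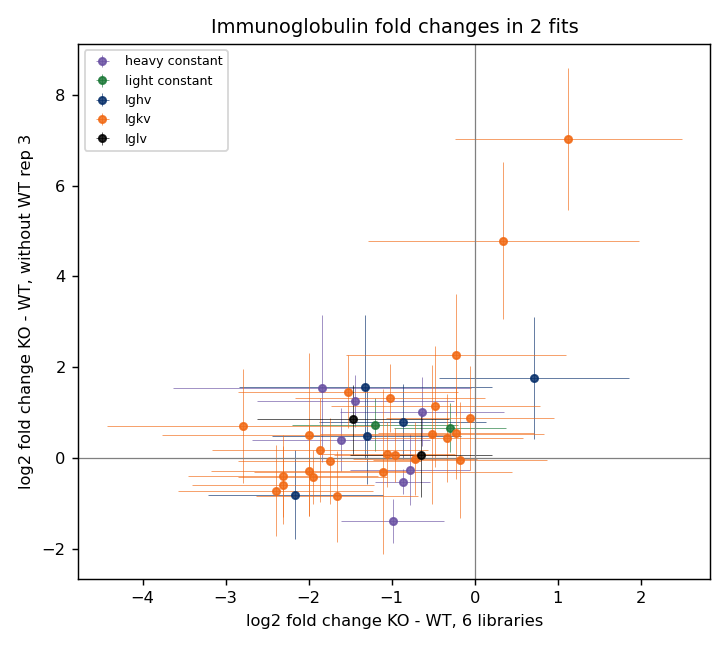
Log2 fold change of KO over WT for 41 immunoglobulin members with all 6 libraries (horizontal) and without WT replicate 3 (vertical), coloured by class, with SE bars. Points right of 0 on the horizontal axis number 3, while 27 lie above 0 on the vertical axis. The highest point is Igkv12-46, which had no read in WT replicates 1 and 2, so its vertical position is set by the fit and is no bound.

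Isotype use was next compared as the share of each class among the reads of the 8 heavy chain constant genes, which does not depend on library size. IgA took the largest share in 5 of 6 libraries, and IgM with IgD took the largest in WT replicate 2. IgA made up 46.3%, 37.7% and 74.8% of heavy chain reads in WT replicates 1 to 3 and 68.2%, 66.0% and 49.7% in KO replicates 1 to 3. The means were 52.9% ± 19.5 (SD, n = 3) in WT and 61.3% ± 10.1 (SD, n = 3) in KO, a difference of 8.36 percentage points (exact two-sided permutation test, p = 0.6). Leaving out WT replicate 3, the WT library with the most IgA, raised the difference to 19.3 points with all 3 KO shares above both remaining WT shares, and leaving out 1 library at a time gave 0.745 (without WT replicate 2) to 19.3 points, so its size depended on single libraries. Counting error was small beside this spread: the exact Clopper-Pearson 95% interval of the lowest share, in WT replicate 2, was 35.4% to 40.1% and that of the highest was 74.2% to 75.5%. The intervals of KO replicate 3 (47.1% to 52.4%) and WT replicate 1 (43.8% to 48.7%) overlapped, so their order, on which the separation without WT replicate 3 rests, is uncertain. These intervals cover counting error only.

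IgM with IgD fell into a high and a low set of libraries that cut across genotype. The shares were 40.6%, 40.9% and 6.003% in WT and 11.5%, 11.7% and 39.2% in KO replicates. The low libraries were WT replicate 3, KO replicate 1 and KO replicate 2, the same 3 with the highest summed immunoglobulin level, and each genotype was present on both sides. The means were 29.2% ± 20.1 (SD, n = 3) in WT and 20.8% ± 16.0 (SD, n = 3) in KO, a difference of -8.36 percentage points (exact two-sided permutation test, p = 0.8). Without WT replicate 3 the difference was -19.9 points, with all 3 KO shares below both remaining WT shares. Within IgM and IgD together, IgD made up 24.6%, 24.7% and 4.79% in WT and 15.3%, 10.98% and 17.7% in KO replicates, so it too was lowest in WT replicate 3. This order was noticed in the values and was not tested.

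IgG as a whole made up 13.2%, 21.4% and 19.1% of heavy chain reads in WT and 20.2%, 22.3% and 11.04% in KO replicates, with means of 17.9% ± 4.24 and 17.8% ± 5.98 (SD, n = 3 each; exact two-sided permutation test, p = 1). IgE reached at most 0.13%, in KO replicate 1. Because the genes differ in length, the shares were also taken from the deposited RPKM. On that scale IgA made up 36.9%, 29.5% and 67.4% in WT and 61.2%, 57.2% and 40.7% in KO replicates, and IgM with IgD exceeded IgA in WT replicates 1 and 2 and in KO replicate 3. The difference in IgA share was then 8.43 percentage points, close to that from reads.

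**Figure D3:**
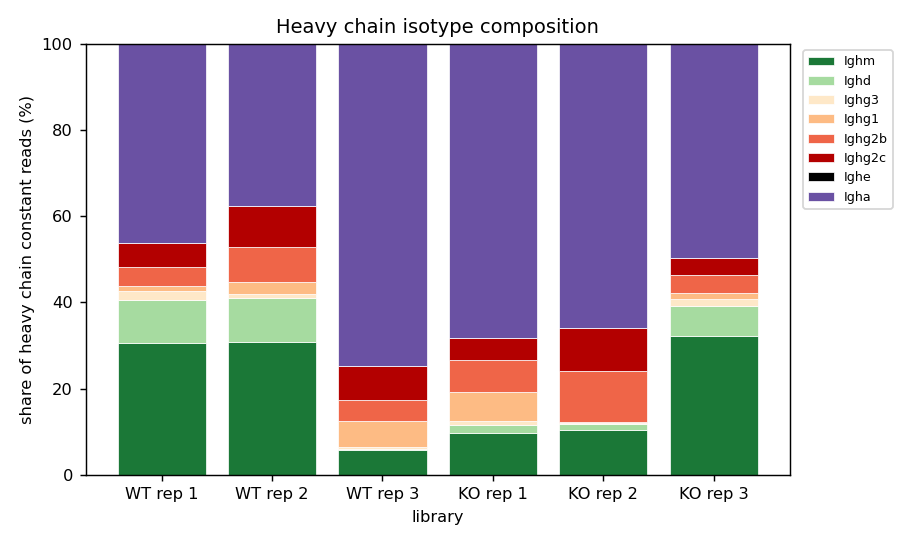
Stacked bars give the share (%) of heavy chain constant reads from each of 8 genes in each library, from 0 to 100. The green Ighm and Ighd bars together reach about as high in KO replicate 3 (39.2%) as in WT replicates 1 and 2, and are short in WT replicate 3 and KO replicates 1 and 2.

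Among IgG reads, the shares of the 4 subclasses overlapped between genotypes. Ighg1 made up 8.18%, 13.7% and 31.9% in WT and 33.9%, 1.05% and 12.7% in KO replicates (exact two-sided permutation test, p = 0.9). Its highest and its lowest shares were thus both in KO libraries, with exact 95% intervals of 31.1% to 36.8% and 0.503% to 1.92%. Ighg2b made up 34.1%, 38.1% and 25.4% in WT and 36.7%, 53.0% and 39.5% in KO replicates, a difference of 10.5 percentage points (exact two-sided permutation test, p = 0.2). Only KO replicate 1, at 36.7%, fell within the WT range. Taken from RPKM, the 3 KO shares of Ighg2b all lay above the WT shares, by 8.63 percentage points on average (exact two-sided permutation test, p = 0.1, the smallest possible). Ighg2c made up 42.2% ± 1.53 (SD, n = 3) in WT and 34.6% ± 9.90 (SD, n = 3) in KO (exact two-sided permutation test, p = 0.4). Ighg3 ranged from 1.26% in KO replicate 2 to 15.9% in WT replicate 1. The IgG genes share sequence, as printed above for one pair, so these shares carry the uncertainty of the read assignment as well.

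Light chains were almost all kappa, the usual state in mice. Igkc made up 97.2%, 98.5% and 99.1% of light chain constant reads in WT and 98.7%, 96.8% and 96.2% in KO replicates, a difference of -1.01 percentage points (exact two-sided permutation test, p = 0.3). Iglc2 was the only lambda constant gene counted, so the kappa share is an upper value. Counted from variable segments, which include all 3 Iglv rows, kappa made up 93.3%, 90.0% and 93.4% in WT and 93.9%, 93.6% and 86.4% in KO replicates. Within lambda, Iglv1 supplied 37.2%, 66.0% and 85.2% of reads in WT and 90.2%, 44.0% and 44.6% in KO replicates, and Iglv2 supplied 34.9%, 29.8% and 11.7% in WT and 2.46%, 40.7% and 41.1% in KO replicates. Iglv3 made up the rest, from 3.16% to 27.9%. Iglv1 was highest where immunoglobulin RNA was highest, in WT replicate 3 and KO replicate 1, on 411 and 122 Iglv reads. The other 4 libraries rested on 43 to 91 Iglv reads each.

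Variable segments received 14947 reads in all, between 18.8% and 24.6% of member reads in each library. Depth differed widely: Ighv reads numbered 136, 170 and 2420 in WT and 379, 580 and 87 in KO replicates, and Igkv reads 601, 421 and 5818 in WT and 1876, 1333 and 356 in KO replicates. In WT replicate 3 every member segment had a read. Of the Ighv segments 14 had a read in all 6 libraries, as did 30 of the Igkv segments. In the remaining libraries 35 to 57 Ighv and 49 to 68 Igkv segments had a read, fewest Ighv in KO replicate 3 and fewest Igkv in WT replicate 2. No segment had reads in KO libraries alone, while 6 Ighv segments had reads in WT libraries alone, 3 of them in WT replicate 3 alone. These counts depend on depth and on the minimum summed count of 10, which Ighv5-15 reached through WT replicate 3 alone. With WT replicate 3 set aside, 14 Ighv and 11 Igkv segments had reads in KO but not in WT replicates 1 and 2, and 3 Ighv and 0 Igkv segments the reverse. KO then had more libraries, and KO replicates 1 and 2 had more reads than either WT library. Neither set of counts is therefore a result about genotype.

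Diversity was measured as the effective number of segments, the number of equally used segments that would give the same Shannon entropy. For Ighv it was 31.7, 35.1 and 45.9 in WT and 37.6, 33.3 and 29.8 in KO replicates. The highest value was again that of WT replicate 3 and the lowest that of KO replicate 3, the most and the least deeply read libraries. The genotype means were 37.5 ± 7.42 (SD, n = 3) in WT and 33.5 ± 3.898 (SD, n = 3) in KO, a difference of -4.01 (exact two-sided permutation test, p = 0.6). Without WT replicate 3 the difference was 0.159, so it rested on that library. At an equal number of 87 Ighv reads the effective number was 28.3, 29.5 and 30.8 in WT and 28.9, 24.8 and 29.8 in KO replicates, and the number of segments expected with a read was 36.3, 37.4 and 38.8 in WT and 36.4, 34.9 and 35.0 in KO replicates. At equal reads the lead of WT replicate 3 thus shrank, and the genotypes overlapped on both measures.

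For Igkv the effective number was 30.5, 30.1 and 31.0 in WT and 27.8, 26.0 and 30.8 in KO replicates. KO replicates 1 and 2 lay below every WT library and KO replicate 3 within the WT range, so the means were 30.5 ± 0.45 (SD, n = 3) in WT and 28.2 ± 2.41 (SD, n = 3) in KO, a difference of -2.31 (exact two-sided permutation test, p = 0.3). At an equal 356 reads it was 29.2, 29.7 and 27.9 in WT and 25.6, 24.0 and 30.8 in KO replicates. The number of segments expected with a read at that depth, in contrast, averaged 1.30 more in KO than in WT. With the leading segment of each library left out the effective number was 0.84 higher in KO, so the sign of the Igkv difference depended on the measure. When 1 of the 2 overlapping rows named Igkv19-93 was left out, the KO effective numbers were 27.4, 25.0 and 30.1 against 30.3, 30.1 and 30.4 in WT, a difference of -2.76 with no overlap (exact two-sided permutation test, p = 0.1, the smallest possible). KO replicate 3, at 30.06, was then just below the lowest WT library, at 30.09.

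**Figure D4:**
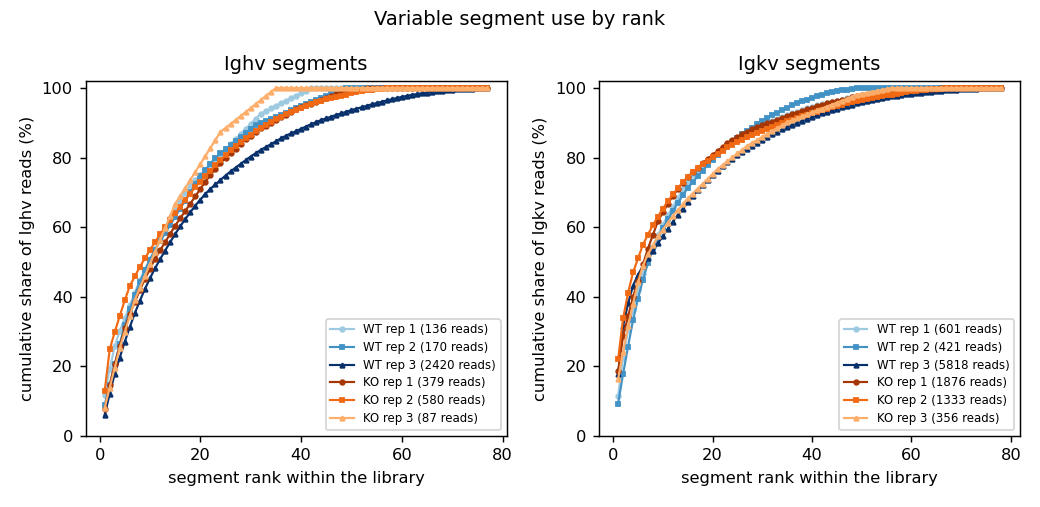
Cumulative share (%) of Ighv (left) and Igkv (right) reads against segment rank within each library, 1 line per library with its read number in the legend. The 10 most used segments hold 45.3% to 53.4% of Ighv reads and 57.4% to 65.3% of Igkv reads, and the lines of the genotypes interleave.

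The leading heavy chain segment differed from tumour to tumour. It was Ighv1-81 in WT replicate 1 (11.8% of Ighv reads), Ighv3-6 in WT replicate 2 (8.82%) and Ighv5-17 in WT replicate 3 (6.03%). In the KO replicates 1 to 3 it was Ighv1-54 (7.65%), Ighv2-2 (12.8%) and Ighv1-81 (8.05%). These shares of 6.03% to 12.8% left most Ighv reads of each library to other segments, and Ighv1-81 led in 1 library of each genotype. Summed over all libraries the Ighv segments with the most reads were Ighv1-81, Ighv5-17 and Ighv6-3, a rank set largely by WT replicate 3, which held 146 of 184 Ighv5-17 reads and 144 of 170 Ighv6-3 reads. Ighv1-81, at chr12:115920279-115920712 on the minus strand, supplied 11.8%, 5.88% and 4.59% in WT and 6.86%, 12.1% and 8.05% in KO replicates. Ighv6-3 supplied 1.47%, 5.88% and 5.95% in WT and 0%, 2.24% and 1.15% in KO replicates. The 0 in KO replicate 1 stood for none of 379 reads, an exact 95% upper limit of 0.969%. Ighv2-2 ranged from 0.588% in WT replicate 2 to 12.8% in KO replicate 2, where it had 74 reads against at most 26 elsewhere. The Ighv1 family, the largest in the mouse, supplied 35.6% to 56.7% of Ighv reads, with its lowest and its highest share both in KO libraries.

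In light chain use 1 of 2 closely related segments led in each library. Igkv1-117 supplied 7.82%, 8.55% and 17.7% of Igkv reads in WT and 10.2%, 22.0% and 7.87% in KO replicates, and Igkv1-110 supplied 11.5%, 9.26% and 13.97% in WT and 18.5%, 11.8% and 16.3% in KO replicates. Igkv1-110 led in WT replicates 1 and 2 and KO replicates 1 and 3, and Igkv1-117 in WT replicate 3 and KO replicate 2. The next segment was the other of the pair in 5 libraries, and Igkv6-15, with 10.98%, in WT replicate 1; Igkv6-15 was named after its values were seen. Because the pair differ in few bases, as printed above, their sum is the safer value: 19.3%, 17.8% and 31.6% in WT and 28.7%, 33.8% and 24.2% in KO replicates. The pair took its lowest shares in WT replicates 1 and 2, and the genotypes overlapped through WT replicate 3. Igkv15-103, the next segment by reads, supplied 5.66%, 7.84% and 5.12% in WT and 4.69%, 1.35% and 1.97% in KO replicates. All KO shares of Igkv15-103 lay below all WT shares, but its level overlapped between genotypes (0.43, 0.44 and 3.35 normalized CPM in WT, 0.84, 0.14 and 0.084 in KO replicates; log2 fold change -1.99 ± 1.18, SE).

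Some segments were used unevenly, and those named next were chosen after their values were seen. Igkv11-125 had 372 reads in WT replicate 3, or 6.39% of its Igkv reads (exact 95% interval 5.78% to 7.05%), and 2.85% (interval 1.48% to 4.93%, 12 reads) in WT replicate 2. It took at most 0.90% in the other 4 libraries. Ighv1-18 had 4.63% of Ighv reads in WT replicate 3 and at most 1.03% elsewhere. The Igkv19 family supplied 8.03% of Igkv reads in KO replicate 2 and at most 2.25% elsewhere, with its reads counted on both rows named Igkv19-93. These rows overlap on opposite strands and had summed counts of 109 and 108, so the same reads appear to have been counted in both. Igkv6-17 had 105 reads in KO replicate 1 and 79 in WT replicate 3, against 1, 1, 15 and 5 in the other libraries.

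**Figure D5:**
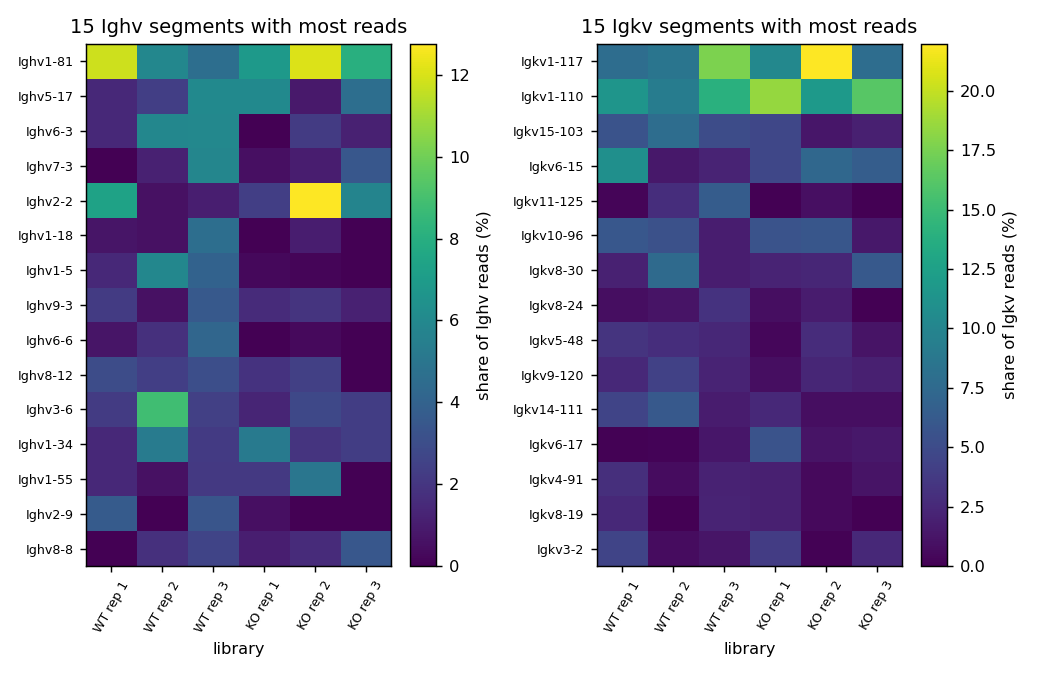
Share (%) of Ighv reads (left) and Igkv reads (right) for the 15 segments of each class with the most reads, rows by segment and columns by library, with brighter cells for larger shares. Igkv1-117 and Igkv1-110 are bright in every column, whereas the brightest Ighv cells, Ighv2-2 and Ighv1-81 in KO replicate 2, are not shared by all columns.

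Whole profiles of segment use were compared with the Bray-Curtis distance, which is 0 for identical shares and 1 for no segment in common. For Ighv the mean distance was 0.561 between libraries of different genotypes and 0.558 between libraries of the same genotype (exact permutation test of the difference, p = 1). For Igkv the means were 0.414 and 0.405 (exact permutation test, p = 0.5). Both differences, 0.003 and 0.009, were small beside the range of the distances. Ighv distances ranged from 0.461 to 0.662 and Igkv distances from 0.349 to 0.489. Read number also differs between these libraries, and its part in the distances was not tested.

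The numbers that open the sample descriptions fall below 2000 for WT replicate 1 and KO replicates 1 and 3, and above 3000 for the other 3, and the labels do not say what they stand for. Within the lower range the summed immunoglobulin level was 0.44 higher in KO on the log2 scale, and within the upper range it was -1.09, so the sign did not hold. The IgA share was higher in KO by 12.7 and by 9.71 percentage points within the 2 ranges, and the share of IgM with IgD differed by -15.2 and -11.8 points. The Ighg1 share of IgG differed by 15.1 and -21.8 points and the Ighv effective number by 2.02 and -7.23, with opposite signs. The Igkv effective number differed by -1.16 and -4.54. Each range holds 1 library of one genotype and 2 of the other, so none of these has a test of its own.

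Genes that accompany immunoglobulin in B lineage cells were read from lists, whose members were tested in the same fit. Of 20 B cell receptor and surface genes 18 were tested, of which 14 had a negative and 4 a positive log2 fold change, with a median of -0.64. An unadjusted p under 0.05 was reached by 2 genes, both lower in KO, against a background of 2.02% for that direction, and 0 passed an adjusted p of 0.05 in edgeR. Cd79a, a signalling chain of the B cell receptor, held 1.37, 0.89 and 1.07 normalized CPM in WT and 0.52, 0.26 and 0.48 in KO replicates, a log2 fold change of -1.39 ± 0.41 (SE). Blk, a kinase downstream of it, held 0.66, 0.67 and 0.62 in WT and 0.15, 0.21 and 0.40 in KO replicates (-1.37 ± 0.46, SE). Ms4a1, which encodes CD20, held 1.00, 0.81 and 0.55 in WT and 0.20, 0.23 and 0.57 in KO replicates (-1.24 ± 0.53, SE). In this list 3 genes had every KO library below every WT library, Cd79a, Blk and Cd79b, against 3.96% of all genes tested. Cd79b, the partner chain of Cd79a, held 1.37, 1.15 and 0.89 normalized CPM in WT and 0.73, 0.44 and 0.74 in KO replicates. Ms4a1 overlapped by 1 KO library. In contrast to the immunoglobulin genes, Cd79a, Blk, Ms4a1 and Cd79b were not raised in WT replicate 3. This does not hold for the whole list: Fcrla (0.46 normalized CPM) and Bank1 (1.64), named after their values were seen, were highest there. The sum over the whole list ranged from 27.1 to 41.0 normalized CPM in WT and from 31.6 to 42.3 in KO libraries. Blnk, a signalling adaptor, and Cd72, a surface receptor, together supplied most of this sum in each library and had positive log2 fold changes of 0.64 and 0.03. Cr2 and Ebf1 were the other positive genes, at 2.69 ± 1.36 (SE) and 0.89 ± 0.86 (SE). Pax5, a transcription factor that defines B cells, was at 0 in WT replicate 3 and at most 0.21 normalized CPM elsewhere.

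Among plasma cell genes, Jchain had the library order of Igha at the top. Jchain, whose product joins IgA and IgM into polymers, held 5.16, 3.67 and 57.0 normalized CPM in WT and 17.6, 7.88 and 3.61 in KO replicates. WT replicate 3 was first and KO replicate 1 next, and its log2 fold change was -1.18 ± 1.12 (SE) with all libraries and 1.14 without WT replicate 3. Of 14 plasma cell genes 12 were tested, 9 with a negative and 3 with a positive log2 fold change, with a median of -0.31. Of these, 2 had an unadjusted p under 0.05 in edgeR, Derl3 and Cd38, both lower in KO, and 0 passed an adjusted p of 0.05. The background for that direction was 2.02% of all genes tested. Derl3, a factor of protein export from the endoplasmic reticulum, held 24.8 normalized CPM in WT replicate 1 and between 0.47 and 2.62 in the other 5 libraries, so its log2 fold change of -3.18 ± 1.22 (SE) rested on that library and was -0.78 without it. Cd38 held 14.7, 18.1 and 24.1 in WT and 12.7, 14.96 and 10.3 in KO replicates (-0.59 ± 0.24, SE), and Sdc1, which encodes CD138, held 261, 230 and 228 in WT and 179, 168 and 206 in KO replicates (-0.38 ± 0.18, SE). Sdc1 is also made by hepatocytes, and the summed level of the list, 509 to 711 normalized CPM in WT and 411 to 618 in KO libraries, came largely from Sdc1 and Xbp1, another gene that hepatocytes use. Tnfrsf17, which encodes the plasma cell receptor BCMA, was at 0 in 3 of 6 libraries and at most 0.057 normalized CPM, with its few reads in WT replicate 3 and KO replicates 1 and 2. Prdm1, a regulator of plasma cell formation, and Slamf7, a surface receptor, both named after their values were seen, were also highest in WT replicate 3 (3.35 and 1.81 normalized CPM) and next in KO replicate 1 (2.26 and 1.41). Sdc1 and Derl3, in contrast, were highest in WT replicate 1, and the order was not tested over the list.

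The recombinase genes that rearrange immunoglobulin segments were at or near 0. Rag2 had no count in any library, and Rag1 was at 0 in 5 of 6. Dntt, which adds bases at the joins, was in contrast detected in every library, with 10.4, 1.81 and 18.5 normalized CPM in WT and 12.5, 30.4 and 31.0 in KO replicates (log2 fold change 1.27 ± 0.77, SE), and it overlapped between genotypes. Of the 5 V(D)J recombination genes 2 were tested, both with a positive log2 fold change. Of 13 class switching and germinal centre genes 7 were tested, 2 with a negative and 5 with a positive log2 fold change, median 0.23, and 1 had an unadjusted p under 0.05 in the higher direction, where the background was 1.6%. That gene was S1pr2, a receptor that holds germinal centre B cells in place and is made by other cells too. It held 3.46, 3.91 and 3.64 normalized CPM in WT and 5.84, 4.86 and 6.54 in KO replicates (0.65 ± 0.22, SE), without overlap, against 4.15% of all genes tested with every KO library above every WT library. Bcl6, the germinal centre repressor, which hepatocytes also make, held 4.22, 5.68 and 6.73 in WT and 10.7, 17.1 and 5.02 in KO replicates (0.98 ± 0.45, SE) and overlapped.

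Among 12 lymphoid chemokine and B cell survival genes 8 were tested, 4 with a negative and 4 with a positive log2 fold change, with a median of -0.01. In edgeR 1 gene, not named here, had an unadjusted p under 0.05, lower in KO, where the background was 2.02%. Every KO library lay below every WT library for 1 gene and above for 1, against 3.96% and 4.15% of all genes tested. Tnfsf13, which encodes the plasma cell survival factor APRIL, held 25.5, 7.99 and 26.8 normalized CPM in WT and 42.9, 36.5 and 33.7 in KO replicates, without overlap and higher in KO (0.91 ± 0.43, SE). Its unadjusted p in edgeR was 0.078 and its adjusted p 1.00. Cxcl13, the chemokine that draws B cells, was uneven, from 0.15 normalized CPM in KO replicate 2 to 17.2 in WT replicate 2.

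Of 10 immunoglobulin receptors and carriers all 10 were tested, 8 with a negative and 2 with a positive log2 fold change, with a median of -0.41. Pigr, which encodes the polymeric immunoglobulin receptor, held 1077, 1174 and 1227 normalized CPM in WT and 320, 657 and 972 in KO replicates, so every KO library was lower (-0.84 ± 0.41, SE; unadjusted p 0.080 in edgeR). Its lowest value, in KO replicate 1, was in the KO library with the most Igha. Its highest value, in WT replicate 3, was in the library with the most Igha of all. Fcgr2b, which encodes an inhibitory IgG receptor that liver sinusoidal endothelium also carries, held 48.8, 41.0 and 35.8 in WT and 19.4, 26.6 and 22.7 in KO replicates (-0.87 ± 0.19, SE; unadjusted p 0.0028 and adjusted p 1.00 in edgeR), again without overlap. Of all genes tested, 3.96% had every KO library below every WT library. An unadjusted p under 0.05 in edgeR, lower in KO, was reached by 2.02%. Fcgrt, which encodes the neonatal Fc receptor that recycles IgG, held between 66.01 and 95.005 with overlapping genotypes.

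Markers of other cells were read in the same way. All 12 T cell genes had a negative log2 fold change, with a median of -1.14, and 6 had an unadjusted p under 0.05 in edgeR, against 2.02% of all genes tested in that direction. Their summed level ranged from 5.31 to 10.1 normalized CPM in WT and from 2.70 to 4.71 in KO libraries, and none of the 12 was at 0 in any library. The summed neutrophil list ranged from 9.79 to 35.7 in WT and from 4.84 to 8.83 in KO libraries, with WT replicate 3 the highest. Trac, the T cell receptor alpha constant gene, had a log2 fold change of -1.68 ± 0.43 (SE) and the neutrophil gene Retnlg of -2.65 ± 0.36 (SE). Over the 10 lists 0 genes passed an adjusted p of 0.05 in edgeR and 1, Retnlg, did in DESeq2. The summed macrophage list ranged from 72.7 to 252 in WT and from 56.5 to 94.9 in KO libraries and overlapped. Of its 6 genes 5 had a negative and 1 a positive log2 fold change. An unadjusted p under 0.05 was reached in edgeR by 2 of them, both lower in KO. The part of these other cells in the values of Ighm, Cd79a and Blk was not tested.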

How the data were processed

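Per the labels' protocols, RNA was extracted with Trizol and libraries followed the Illumina RNA-Seq protocol. The authors deposited 1 table of raw read counts per gene and RPKM values (per kilobase of coding length) for each library. The tools named in the submitters' processing notes, whose roles are not given, were HTSeq, TopHat2 (version 2.0.6) and bcl2fastq. Human builds are named there, but the deposited identifiers and positions are of the mouse: 166 of 168 members matched GENCODE M21 (GRCm38) by identifier, 135 with the same start, and positions were read as GRCm38. Strand setting and treatment of multiply mapped reads are not stated.

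Counts were fitted over the whole table with edgeR 4.0.16 (filterByExpr, TMM factors, robust quasi-likelihood test, Benjamini-Hochberg adjustment, threshold 0.05). The edgeR script was tested on simulated data. Normalized CPM are counts scaled by TMM-adjusted library size. Shares, effective numbers, equal-read values and Bray-Curtis distances (Python 3.11.15, scipy 1.17.1) were computed from raw counts and compared by exact two-sided permutation tests, which suit 3 against 3 with a smallest p of 0.1. Alternatives were DESeq2 1.42.0, RLE and upper-quartile factors, no filter, RPKM shares, a replicate block, a covariate for the description number, and each library left out.

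Genotype and replicate number came from the sample titles. The members, the lists of 104 genes in 10 groups and the tests were chosen with earlier results of these data known. Text names every constant gene, the 3 segments of each variable class with the most reads, the leading segment of each library, the 4 members of smallest p, and up to 3 genes of smallest p per list. Some list genes are not reported here. Other genes named were chosen after their values were seen or to show a known role. Member reads numbered 3474, 3098 and 36878 in WT and 11371, 8150 and 2656 in KO replicates 1 to 3, which sets the precision of every share.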

Additional observations from a re-analysis of the deposited data

How the results depend on the processing

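Counts of members past the threshold stayed at 0 under all alternatives run, and the lists had 0 genes past it except for 1 with DESeq2. Of 39 genes followed, 26 kept their sign in every setting and 13 did not. Leaving out 1 library at a time gave these ranges of log2 fold change, the upper end without WT replicate 3 in each case: -1.73 to 0.48 for the members' median, -4.87 to 1.53 for Ighg1, -1.11 to 1.014 for Ighg2b, -2.10 to 0.40 for Ighg2c, -1.96 to 1.25 for Igha, -1.93 to 0.73 for Igkc, -0.73 to 0.66 for Iglc2, -1.65 to 0.80 for Ighv1-81, -0.96 (without KO replicate 2) to 1.76 for Ighv2-2, -2.05 to 1.45 for Igkv1-117, -1.88 to 1.32 for Igkv1-110, -2.31 to 0.85 for Iglv1, -0.99 to 0.063 for Iglv2 and -1.92 to 1.14 for Jchain. With WT replicate 3 and KO replicate 1 both left out, the values were 0.73 for Ighg2b, 0.25 for Ighg2c, 0.72 for Igha, 0.62 for Iglc2, 0.90 for Ighv1-81, 1.26 for Igkv1-117, 0.45 for Igkv1-110, 0.58 for Iglv2 and 0.39 for Jchain, and the Ighv distance between minus within genotypes was -0.070. A covariate for the description number gave 0.29 for Ighg2b. The KO minus WT difference in Igkv diversity was 1.30 as the number of segments at equal reads (the effective number at equal reads kept its sign, -2.13) and 0.84 without the leading segment of each library. The Igkv usage difference was 0.051 as 1 minus Spearman correlation. The cause of these changes was not tested.

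Replicate numbers gave no sign of pairing: deviations of libraries with the same number correlated at -0.29, 0.18 and -0.34 over genes. Pairs with different numbers ran from -0.36 (WT replicate 2 with KO replicate 1) to 0.51 (WT replicate 3 with KO replicate 1). Deviations were taken from the mean of each genotype, which ties these values to each other. With the replicate number as a block, 0 members passed the threshold, the members' median was -0.70, and the sign turned for Ighg2b (0.13), Igha (0.16), Iglc2 (0.080), Igkv1-117 (0.34), Igkv1-110 (0.15) and Jchain (0.037). Depth limits segment values, since KO replicate 3 had 87 Ighv reads, and the 3 libraries per genotype cannot give an exact p below 0.1.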

Other observations

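Single libraries held unusual levels of several B cell associated genes, given here as values. Cr2, which encodes complement receptor CD21, held 4.41 normalized CPM in KO replicate 1 and at most 0.40 in the other 5 libraries. The macrophage gene Marco held 55.4 in WT replicate 2 and at most 3.72 elsewhere, and the B cell chemokine Cxcl13 was also highest there. Each of these high values comes from a single library and has no replicate check.

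Variable segments annotated as pseudogenes took a small part of the reads: 6 members carried 226 reads in all, from 0.78% of variable segment reads in WT replicate 2 to 3.01% in KO replicate 3. Of the constant genes, IgM alone made up 30.6%, 30.8% and 5.72% of heavy chain reads in WT and 9.74%, 10.4% and 32.3% in KO replicates.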
